A study of Homo sapiens with 4 samples.

Results

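The comparison described here sets 3 days of hairpin induction against 2 days in OCI-Ly3, a human cell line of diffuse large B-cell lymphoma whose subtype is called activated B-cell. A short hairpin RNA against IKKa had been put into the line and is transcribed when doxycycline is added. Samples were chosen by the labelled days of doxycycline, which takes in 4 of the 4 arrays in the series, 2 at 2 days and 2 at 3 days. Of 4604 genes listed for the array, 3589 had a probe with a value on all 4 arrays and were compared.

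Each array held RNA of cells given doxycycline at 20 ng/ml, coupled to Cy5, and RNA of cells without doxycycline, coupled to Cy3. In the pair without inhibitor, doxycycline had been present for 2 days on one array and 3 days on the other, and neither channel had any other agent. In the inhibitor pair, both channels also had MLN120b, an inhibitor of IKKb, at 12.5 uM. On the 2-day array of that pair the inhibitor was given for 3 h after 2 days of doxycycline, and on the 3-day array for the 24 h that followed 2 days of doxycycline. The day therefore cannot be told apart from the longer exposure to MLN120b within the inhibitor pair. No array had its dyes swapped, the labels name 1 hairpin target, and the labels do not say that arrays came from separate cultures, so each p-value below measures only the spread between these arrays. An exact permutation test within the 2 pairs cannot give a two-sided p below 0.50.

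IKKa and IKKb are the kinases of the IkB kinase complex, which marks IkB proteins for destruction and so frees NF-kB to enter the nucleus. Lymphomas of the activated B-cell type keep this pathway switched on and depend on it for growth and survival. An inducible hairpin lowers its target over time: the messenger goes first, the protein follows as it turns over, and genes further downstream follow later still. A later time point of the same hairpin can thus differ from an earlier one in the target itself, in direct targets, and in growth, secretion and metabolism.

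Values are log2 ratios of the doxycycline channel over the other channel, averaged over the probes of a gene. The deposited table states neither the base nor the direction. Base 2 was read from the range of the values, and the direction is the likely one, Cy5 over Cy3, with both CHUK probes below 0 on all arrays. Were it reversed, every sign given here would turn. The difference with day, called the difference below, is the log2 ratio at 3 days minus that at 2 days, and it is given for each pair, the pair without inhibitor first. A gene is said to lie above or below 2 days where this difference is above or below 0. A ratio holds no level of expression, so the labelled cell type could not be checked against the level of its markers. Fewer cells of a type and less RNA per cell cannot be told apart in such samples.

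Log ratios were wider at 3 days than at 2 days. The median absolute deviation over genes was 0.109 at 2 days and 0.177 at 3 days without inhibitor, a ratio of 1.63, and 0.166 and 0.259 in the inhibitor pair, a ratio of 1.56. Between 11722 and 14375 of 15246 probes had a value on an array, fewest on the 3-day inhibitor array. What the width reflects was not tested. Differences are also given after the 4 arrays were scaled to equal width. Of the 158 genes that the naming rule took, 56 had a mean difference smaller by over 1.5 times at equal width with the same sign, 8 had the other sign and 10 were larger by over 1.5 times. Of the compared genes 1866 rested on 1 probe.

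**Figure D1:**
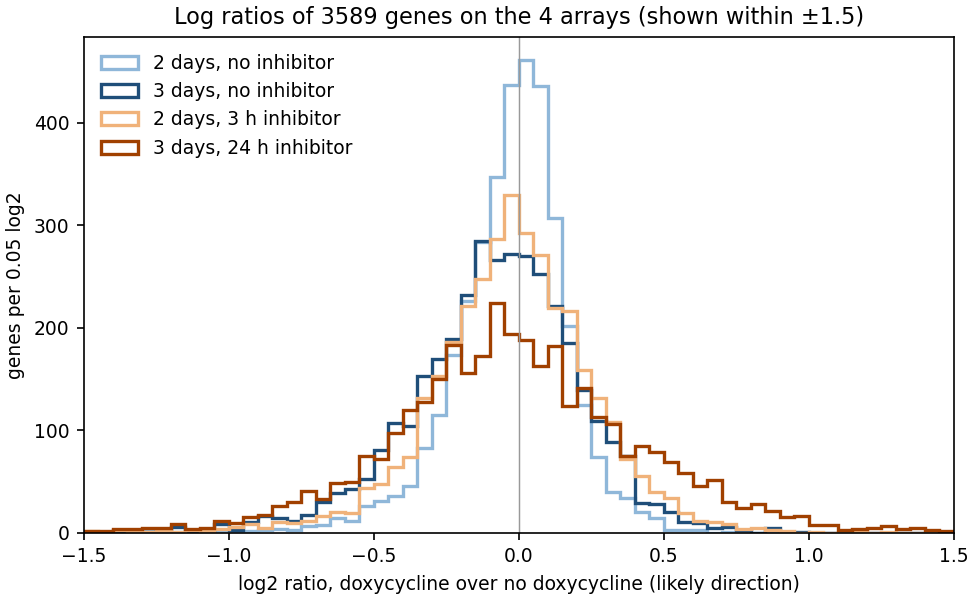
Number of genes (y axis, per 0.05 log2) by log2 ratio of the doxycycline channel over the other channel (x axis) for 3589 genes on each of the 4 arrays. The 2-day array without inhibitor has the narrowest distribution (median absolute deviation 0.109) and the 3-day inhibitor array the widest (0.259).

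CHUK, the gene that the hairpin targets, encodes IKKa. Its ratio was below 0 on each array, a sign that helped to set the likely direction. Without inhibitor its log2 ratio was -0.59 at 2 days and -0.87 at 3 days, and in the inhibitor pair it was -1.30 at 2 days and -1.01 at 3 days. The pairs thus differed in sign, with -0.29 without and 0.29 with inhibitor, and the mean difference was 0.00 (SE 0.17, limma adjusted p = 0.995). Both CHUK probes lay lower at 3 days without inhibitor and higher at 3 days with it. After scaling to equal width the difference was 0.13 without and 0.70 with inhibitor, so the sign in the pair without inhibitor depended on the width of the arrays.

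Over all genes, no difference between days passed the test. limma, with inhibitor status as a covariate and 1 residual degree of freedom, called 0 of 3589 genes (0%) at an adjusted p under 0.05. The smallest adjusted p was 0.208, and 727 genes had an unadjusted p under 0.05, 323 of them above and 404 below 2 days. In both pairs 956 genes (26.6%) lay above their 2-day ratio at 3 days and 1550 (43.2%) lay below it, while 1077 went opposite ways. The median difference was -0.07 without and -0.04 with inhibitor. After scaling to equal width the counts were 1055 above (29.4%) and 1201 below (33.5%), and limma called 3 genes, XAF1, SULT1A1 and KIF15, all above (adjusted p = 0.0424 each). Counts of list members given below are to be read beside these shares of all genes, as deposited and at equal width.

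A rule of size was counted beside the test: a difference beyond 1.5-fold the same way in both pairs. It took 14 genes above (0.39%) and 13 below (0.362%), with 3 genes beyond 1.5-fold in opposite ways. In the pair without inhibitor alone 67 genes were beyond it in each direction, and in the inhibitor pair alone 253 were above and 101 below. The split by direction moved with the scaling: with arrays centred on their median it was 22 above and 7 below, and at equal width 19 above and 2 below. The genes just inside the limit were KIF15 (0.59 and 1.01) and PTGES3 (-0.71 and -0.60). Those just outside were GFI1, a zinc-finger repressor of blood cells (0.58 and 0.76), and COX14, an assembly factor of cytochrome oxidase (-0.58 in both pairs).

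**Figure D2:**
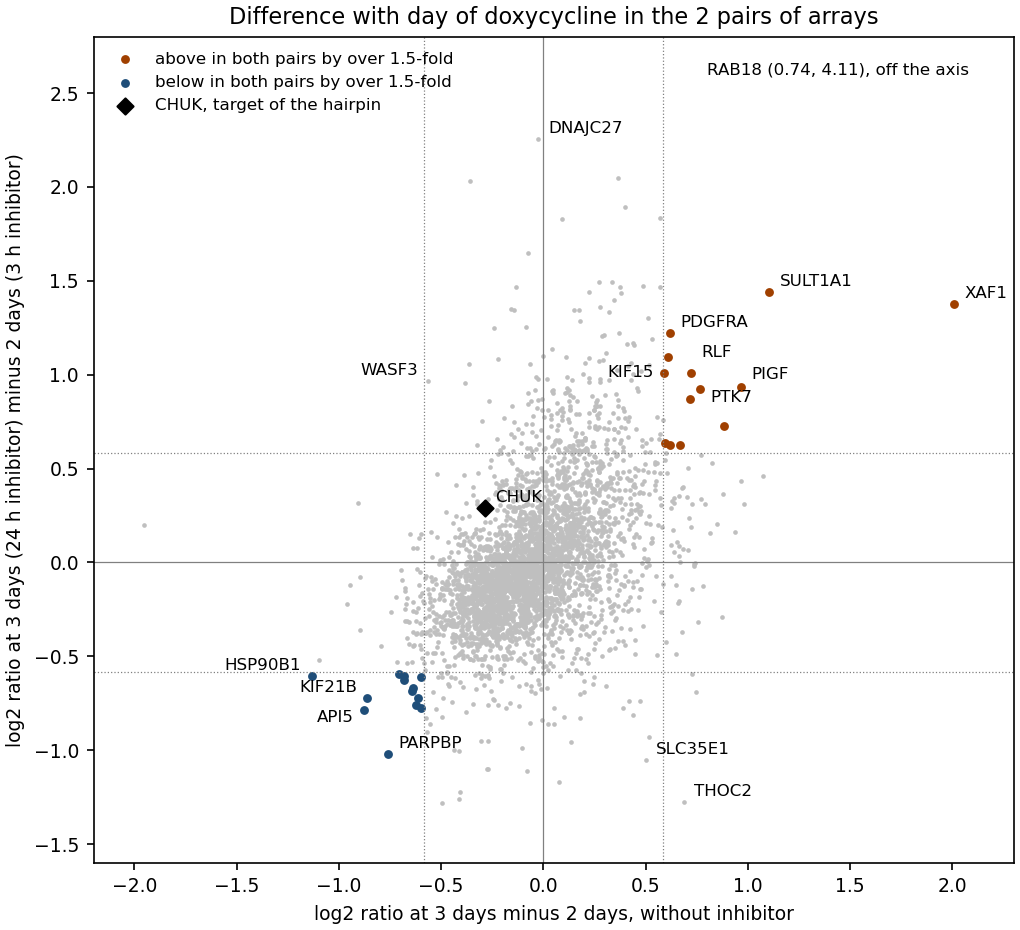
Difference with day of the log2 ratio (3 days minus 2 days) without inhibitor (x axis) and with inhibitor (y axis), 1 point per gene for 3589 genes, with dotted lines at 1.5-fold. Coloured points are the 14 genes above and 13 below beyond 1.5-fold in both pairs; RAB18 (0.74 and 4.11) lies off the axis and CHUK lies in the quadrant of opposite differences.

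Of the 14 genes above, XAF1, an interferon-inducible promoter of cell death that binds the apoptosis inhibitor XIAP, had the largest difference in the pair without inhibitor. Its log2 ratio went from -0.20 at 2 days to 1.80 at 3 days without inhibitor, and from -0.69 to 0.68 with it. Both 2-day arrays were below 0 and both 3-day arrays above, with no overlap. The mean difference was 1.69 ± 0.45 (SD, n = 2 pairs), 3.23-fold, with a limma adjusted p of 0.208 as deposited. SULT1A1, a sulfotransferase that conjugates phenols, stood at -0.22 and 0.89 without inhibitor and at -0.41 and 1.03 with it, a mean difference of 1.27 ± 0.24, 2.42-fold. PIGF, an enzyme of glycolipid anchor synthesis, went from -0.18 to 0.79 and from -0.47 to 0.47, a mean difference of 0.95 ± 0.02. All 3 genes rested on 1 probe each and crossed 0 in both pairs.

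The mitotic kinesin KIF15 went from -0.63 at 2 days to -0.04 at 3 days without inhibitor, and from -1.58 to -0.57 with it. Its 3-day ratios were thus nearer to 0 in both pairs. MAP3K1, a kinase upstream of JNK, had the same shape, with -0.72 and -0.10 without inhibitor and -1.04 and -0.42 with it. These were the 2 genes among the 14 whose ratio was nearer to 0 at 3 days and on the same side in both pairs. KIF15 rested on 1 probe, and of the 2 MAP3K1 probes 1 was above in both pairs and 1 went opposite ways.

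Other genes in this group encode surface and signalling proteins. PTK7, a receptor of Wnt and planar polarity signalling with an inactive kinase domain, stood at -0.06 and 0.71 without inhibitor and at 0.28 and 1.20 with it, and both of its probes were above in both pairs. FCGRT, the heavy chain of the neonatal Fc receptor, had differences of 0.60 and 0.64, also on 2 probes that went the same way. The growth factor receptor PDGFRA had differences of 0.62 and 1.22, and DGKG, a diacylglycerol kinase, 0.61 and 1.09. The adherens junction protein SMAGP had differences of 0.67 and 0.63, the cullin adaptor KLHL18 0.72 and 0.87, and the zinc-finger protein RLF 0.72 and 1.01. PDGFRA, DGKG, SMAGP, KLHL18 and RLF rested on 1 probe each. C9orf164, with 0.88 and 0.73, a gene named for its position, had 1 probe above in both pairs and 1 that went opposite ways.

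RAB18, a small GTPase of lipid droplets and the endoplasmic reticulum, had the most unequal pairs among the 14. Its 1 probe stood at -0.58 and 0.16 without inhibitor and at -1.33 and 2.78 with it. The difference was 0.74 in one pair and 4.11 in the other, so the mean of 2.42 ± 2.38 rests on the inhibitor pair.

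Of the 14 genes above, 9 were below 0 on both 2-day arrays and 11 were above 0 on both 3-day arrays. For 6 genes the ratios at 2 and 3 days had opposite signs in both pairs. All 14 kept their sign in both pairs at equal width, and 7 kept a difference beyond 1.5-fold there. In this group 10 genes rested on 1 probe.

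**Figure D3:**
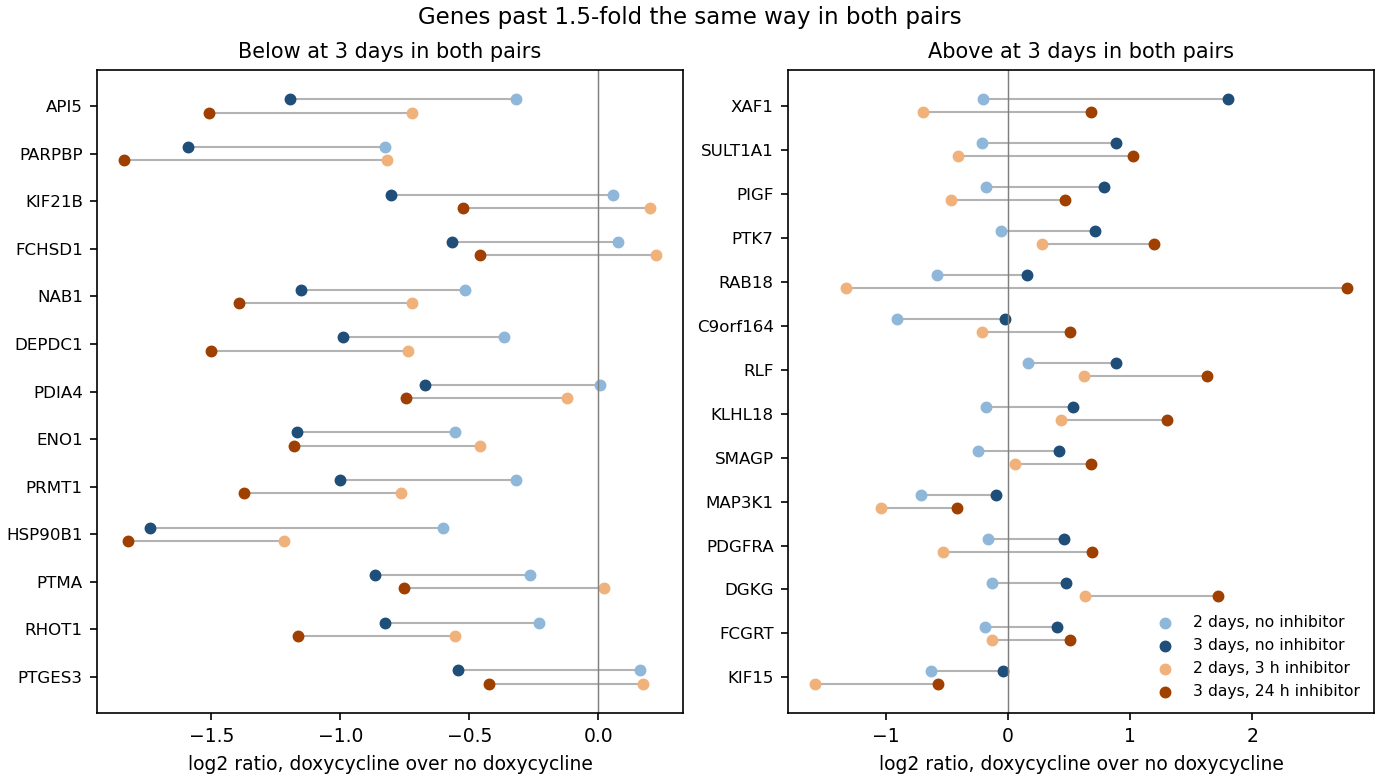
Log2 ratio of the doxycycline channel over the other channel (x axis) at 2 days (pale) and 3 days (dark) without inhibitor (blue) and with inhibitor (orange) for the 13 genes below (left) and 14 above (right) by over 1.5-fold in both pairs; lines join the arrays of a pair. All 13 genes on the left are below 0 on both 3-day arrays, and 11 of the 14 on the right are above 0 on both. In both pairs, 3 genes on the left and 6 on the right lie on opposite sides of 0 at 2 and 3 days.

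All 13 genes below had ratios below 0 on both 3-day arrays, and 8 were already below 0 on both 2-day arrays. Genes taken for a large fall are likely to end below 0, so these counts partly follow from the rule. API5, an inhibitor of apoptosis, went from -0.32 at 2 days to -1.20 at 3 days without inhibitor, and from -0.72 to -1.51 with it. The mean difference was -0.83 ± 0.06 (SD, n = 2 pairs; limma adjusted p = 0.208). PARPBP, which restrains homologous recombination, stood at -0.83 and -1.59 without inhibitor and at -0.82 and -1.84 with it. The 2-day ratios of PARPBP were close to each other and its 3-day ratios both lay lower. KIF21B, a kinesin, was above 0 on both 2-day arrays (0.06 and 0.20) and below 0 on both 3-day arrays (-0.80 and -0.53). API5, PARPBP and KIF21B rested on 1 probe each.

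HSP90B1 and PDIA4 belong to protein folding in the endoplasmic reticulum and are described with that group below. ENO1, the glycolytic enolase, stood at -0.55 and -1.17 without inhibitor and at -0.46 and -1.18 with it, and its 4 probes were below in both pairs. DEPDC1, a gene linked to mitosis, had differences of -0.63 and -0.76 with both of its probes below in both pairs. The arginine methyltransferase PRMT1 had differences of -0.68 and -0.61, the chromatin-associated acidic protein PTMA -0.60 and -0.78, and the HSP90 cochaperone PTGES3 -0.71 and -0.60. NAB1, a corepressor of EGR factors, had differences of -0.64 and -0.67, and FCHSD1, a membrane-bending adaptor, had differences of -0.64 and -0.68. PRMT1, PTMA, PTGES3, NAB1 and FCHSD1 rested on 1 probe each.

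RHOT1, a mitochondrial transport GTPase, was split between its 2 probes. Its differences averaged -0.60 and -0.61, but 1 probe stood at -1.31 and -1.42 and the other at 0.11 and 0.20. At equal width 12 of the 13 genes below kept their sign in both pairs, HSP90B1 being the exception, and 0 kept a difference beyond 1.5-fold. The 2 genes beyond it below 2 days at equal width were PRPS1, an enzyme of nucleotide synthesis (-0.60 in both pairs), and RBM8A, a core protein of the exon junction complex (-0.59 and -0.63).

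Among IKK and NF-kB pathway components, 3 of 27 measured genes lay above and 11 below 2 days in both pairs, and limma called 0. The list median was -0.05 without and -0.02 with inhibitor, beside -0.07 and -0.04 over all genes. At equal width it was 0.04 and 0.06, with 10 above and 4 below, so no direction for the list held under both scalings. RELB, the activating subunit of the alternative pathway, lay above in both pairs on all 3 of its probes, with differences of 0.24 and 0.40. NFKB2, whose p100 product IKKa sends for processing to p52, stood at 0.05 and -0.19 without inhibitor and at 0.09 and -0.14 with it. The 5 NFKB2 probes disagreed, 1 above in both pairs, 1 below and 3 opposite. The TAK1 kinase gene MAP3K7, upstream of IKK, had differences of -0.21 and -0.24 on 2 probes, and the B-cell kinase PRKCB 0.20 and 0.37. Of the 9 PRKCB probes 4 were above in both pairs and 5 opposite, and with the median of its probes the mean difference was 0.058 in place of 0.28. IKBKG, the regulatory subunit of the complex, had differences of 0.02 and -0.03. IKBKB, the gene of IKKb, was not among the genes compared.

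Of 45 NF-kB target genes 14 lay above (31.1%) and 18 below (40%) in both pairs, near the shares of all genes (26.6% and 43.2%), and 0 were called. Their median was -0.12 without and 0.01 with inhibitor, and -0.01 and 0.07 at equal width. CXCL10, a chemokine, stood at 0.13 and -0.23 without inhibitor and at -0.39 and -0.90 with it. All 7 CXCL10 probes were below in both pairs, and the mean difference was -0.44 ± 0.11 (SD, n = 2 pairs; limma adjusted p = 0.208). TNFAIP3, which encodes the feedback inhibitor A20, had differences of -0.23 and -0.50 with all 6 of its probes below in both pairs, although at equal width its differences were -0.04 and -0.10. PLEK, a substrate of protein kinase C, had differences of -0.39 and -0.51 and CFLAR, which blocks caspase 8, -0.32 and -0.28 (-0.31 and -0.02 at equal width).

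NFKBIA, the gene of IkBa, had differences of -0.22 and -0.09 as deposited and -0.05 and 0.24 at equal width, where the sign of its mean turned. The anti-apoptotic gene BCL2A1 had differences of -0.10 and -0.25, and 3 of its 5 probes were below in both pairs. Among the cytokine genes that the rule names, IL6 had differences of 0.12 and 0.28, IL10 0.08 and 0.14, CCL3 0.11 and 0.41 and CCL4 0.07 and 0.12. For CCL3 all 3 probes were above in both pairs, while for IL6 1 of 3 and for CCL4 1 of 4 were. Among other cytokines of the list, TNF (-0.52 and 0.47) and the lymphotoxin gene LTB (0.10 and -0.01) went opposite ways, and CXCL10 lay below. LTA (0.21 and 0.21), CCL5 (0.05 and 0.56), CCL22 (0.36 and 0.07) and EBI3 (0.19 and 0.69) lay above in both pairs. At equal width the CCL4 difference in the inhibitor pair was -0.01. The differences of IL6, IL10, CCL3 and CCL4 had adjusted p-values of 0.309 to 0.636 in limma.

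Markers of activated B-cell lymphoma lay below 2 days in both pairs for 14 of 20 genes and above for 1, beside 43.2% and 26.6% of all genes. The list median was -0.17 in each pair as deposited, and -0.10 and -0.02 at equal width, with 9 below and 4 above there. IRF4, the factor on which these lymphomas depend, stood at -0.28 and -0.66 without inhibitor and at -0.53 and -0.86 with it. Its 2-day and 3-day ratios did not overlap, its difference was -0.35 ± 0.03 (SD, n = 2 pairs; limma adjusted p = 0.214), and 3 of its 4 probes were below in both pairs. At equal width the IRF4 differences were -0.15 and -0.02 (limma adjusted p = 0.814). TCF4, the E-protein of this subtype, stood at -0.42 and -0.85 without inhibitor and at -0.25 and -1.25 with it, both probes below in both pairs, and at equal width its differences were -0.13 and -0.59. CYB5R2, a reductase used as a subtype marker, had differences of -0.25 and -0.30 on 1 probe, and -0.12 and -0.01 at equal width. CCND2, a G1 cyclin, had differences of -0.25 and -0.01, and at equal width -0.28 and 0.15.

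Germinal-centre lymphoma markers had 8 of 15 above (53.3%) and 5 below (33.3%) in both pairs, beside 26.6% and 43.2% of all genes. The list medians were 0.03 and 0.05. At equal width 5 were above and 3 below, with medians of 0.07 and 0.05, beside 29.4% above and 33.5% below for all genes. ASB13, a ubiquitin ligase adaptor, had differences of 0.41 and 0.23 on 1 probe (0.51 and -0.03 at equal width) and MYBL1, a factor of germinal-centre cells, 0.30 and 0.19. RGS13, a regulator of G-protein signalling in germinal centres, had differences of -0.24 and -0.27 (-0.02 and -0.05 at equal width), and the glucocorticoid receptor NR3C1 -0.16 and -0.30. In this list 44.6% of probes lacked a value on at least 1 array, against 10.3% for the activated B-cell list, and the part of this in the result was not tested.

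B-cell identity genes had 6 of 25 above (24%) and 14 below (56%) in both pairs, beside 26.6% and 43.2% of all genes. The list medians of -0.14 and -0.10 became 0.00 and 0.01 at equal width. LYN, a kinase of B-cell receptor signalling, had differences of -0.34 and -0.33 with all 6 probes below in both pairs, and -0.20 and -0.12 at equal width. IRF8, a factor of germinal-centre B cells, had differences of -0.23 and -0.51, and -0.01 and -0.23 at equal width. Of its 4 probes 3 were below in both pairs and 1 went opposite ways. PAX5, the master factor of B-cell identity, had differences of -0.22 and -0.36, and -0.28 and -0.35 at equal width. Of the 4 PAX5 probes 3 were below and 1 above in both pairs. CD72, an inhibitory coreceptor, lay on the other side at 0.46 and 0.71 on 1 probe. Genes of plasma-cell differentiation had 1 of 12 above and 4 below, with medians of -0.09 and 0.08 (0.03 and 0.11 at equal width), and those of MHC class II presentation 1 of 13 above and 5 below, with medians of -0.28 and 0.07. In the latter list CIITA, the class II activator, had differences of 0.21 and 0.52 and CTSS, the protease that trims the invariant chain, -0.45 and -0.34. Receptor and cytokine genes of the JAK-STAT pathway had 3 of 19 above and 11 below, with medians of -0.12 and -0.06, and at equal width 5 above and 8 below with -0.03 and -0.04. Among them all 3 probes of IL10RA were below in both pairs, with differences of -0.30 and -0.33, while IL6R on 1 probe had differences of 0.32 and 0.71.

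Of all genes 43.2% lay below and 26.6% above 2 days in both pairs. Chaperones of the endoplasmic reticulum and genes of its degradation pathway lay below for 14 of 18 genes (77.8%) and above for 2 (11.1%). These genes fold secreted and membrane proteins or clear those that fail to fold. Their median ratio went from -0.14 to -0.38 without inhibitor and from -0.13 to -0.35 with it, a median difference of -0.20 and -0.24. At equal width the medians were -0.04 and -0.05, with 7 below and 4 above. limma called 0 of the 18, and 2 were beyond 1.5-fold in both pairs.

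HSP90B1, the HSP90 of the endoplasmic reticulum, went from -0.60 at 2 days to -1.74 at 3 days without inhibitor, and from -1.22 to -1.82 with it. Both 3-day ratios lay below both 2-day ratios, and both probes were below in both pairs. Its difference was -1.13 and -0.60 as deposited, and -0.71 and 0.06 at equal width. PDIA4, a disulfide isomerase, stood at 0.01 and -0.67 without inhibitor and at -0.12 and -0.75 with it, so this gene was near 0 at 2 days on both arrays. At equal width PDIA4 still had differences of -0.64 and -0.38. HSPA5, the chaperone BiP that senses unfolded proteins, stood at -0.25 and -0.62 without inhibitor and at -0.09 and -0.44 with it, and at equal width its difference was -0.17 and -0.21. SEL1L, an adaptor of the degradation ligase, had differences of -0.44 and -0.55, but its 2-day ratios were -0.95 and -1.40, and at equal width its differences were 0.21 and 0.16. XBP1, a factor that induces these genes, had differences of -0.15 and -0.29, and 0.06 and -0.16 at equal width. PDIA4, HSPA5, SEL1L and XBP1 rested on 1 probe each.

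Promoters of this group are known for the endoplasmic reticulum stress element, a CCAAT box and a CCACG box held 9 bases apart. The letters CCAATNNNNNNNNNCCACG were searched on both strands in the 250 bases before each gene start in the RefSeq promoter table (GRCh38.p14). They were found for 25 of 27305 genes (0.0916%), for 7 of 2939 measured genes with a promoter in the table (0.238%), and for 6 of 17 genes of the list (35.3%). Among the 14 list genes below in both pairs 5 held it (35.7%), near the share of the whole list. The windows of HSP90B1, with 2 matches, HSPA5 and XBP1 are shown because these are the genes described above that hold it. Each runs 5′ to 3′ on the strand of its gene, with the match in capitals. A match describes the letters and is no evidence of binding.
HSP90B1, chr12:103930176-103930274, plus strand: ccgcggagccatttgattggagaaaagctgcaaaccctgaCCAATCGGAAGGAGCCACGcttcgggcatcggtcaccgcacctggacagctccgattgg
HSP90B1, chr12:103930281-103930379, plus strand: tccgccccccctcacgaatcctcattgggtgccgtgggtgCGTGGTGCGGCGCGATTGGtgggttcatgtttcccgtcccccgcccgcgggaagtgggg
HSPA5, chr9:125241351-125241449, minus strand: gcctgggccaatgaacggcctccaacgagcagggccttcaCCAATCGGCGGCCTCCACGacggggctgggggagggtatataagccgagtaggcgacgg
XBP1, chr22:28800570-28800661, minus strand: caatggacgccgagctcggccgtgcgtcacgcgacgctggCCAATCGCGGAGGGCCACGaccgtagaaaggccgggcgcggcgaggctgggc
The second HSP90B1 window holds the match as its reverse complement. The genes holding these windows had differences of -1.13 and -0.60 (HSP90B1), -0.37 and -0.35 (HSPA5) and -0.15 and -0.29 (XBP1). Of the other list genes that hold it, CALR (-0.41 and -0.26) and CANX (-0.19 and -0.29) lay below in both pairs. CRELD2 (0.16 and -0.48) went opposite ways. ALG12, a measured gene outside the list, also holds it and lay above in both pairs (0.04 and 0.135). No match to these letters was found in the windows of PDIA4 and SEL1L, which had differences of -0.68 and -0.62 and -0.44 and -0.55.

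Amino acid response and translation stress genes had 3 of 13 above and 7 below in both pairs, with medians of -0.10 and -0.15. At equal width 2 lay above and 5 below, with medians of -0.01 and -0.05. ATF4, the factor that drives this response, had differences of -0.32 and -0.25 with all 5 probes below in both pairs, and -0.18 and -0.13 at equal width. The glycine and tryptophan tRNA synthetases GARS1 (-0.39 and -0.38) and WARS1 (-0.21 and -0.25) went the same way on 2 and 4 probes. EIF2AK3, the stress kinase PERK, lay on the other side at 0.24 and 0.54 on 1 probe.

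Genes of MYC and nucleolar ribosome biogenesis had medians of -0.44 without and -0.31 with inhibitor. In both pairs 16 of 19 lay below 2 days and 1 above, and at equal width 10 below and 1 above, with medians of -0.26 and -0.09. NCL, nucleolin, stood at -0.35 and -0.88 without inhibitor and at -0.56 and -1.34 with it, on 1 probe. DDX21, a helicase of ribosomal RNA processing, was above 0 on both 2-day arrays (0.15 and 0.06) and below 0 on both 3-day arrays (-0.25 and -0.38). EIF4E, which binds the messenger cap, went from 0.22 to -0.28 and from 0.01 to -0.33 with its 4 probes below in both pairs. MYC itself stood at 0.07 and -0.37 without inhibitor and at -0.49 and -0.55 with it, so its difference was -0.44 in one pair and -0.06 in the other. At equal width the MYC difference was -0.44 and 0.15.

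Cytosolic ribosomal proteins started above 0 and lay near 0 at 3 days. Their median ratio was 0.20 (2 days) and 0.00 (3 days) in the pair without inhibitor and 0.11 and 0.01 in the other pair. In both pairs 21 of 26 lay below 2 days and 0 above, and at equal width 20 below and 0 above, with medians of -0.29 and -0.17. Of the members, 15 were above 0 on both 2-day arrays and 11 on both 3-day arrays. RPS21 went from 0.42 to 0.05 and from 0.32 to 0.02, and RPL27 from 0.36 to 0.06 and from 0.37 to 0.05, with the 3 probes of each below in both pairs. RPS4X had differences of -0.33 and -0.23, also on 3 probes below. RPS3, on 1 probe, stood apart with -0.10 and -0.82 without inhibitor and -0.33 and -0.86 with it. Ribosomal protein genes have many near-identical copies in the genome, so a probe may read more than 1 of them.

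**Figure D4:**
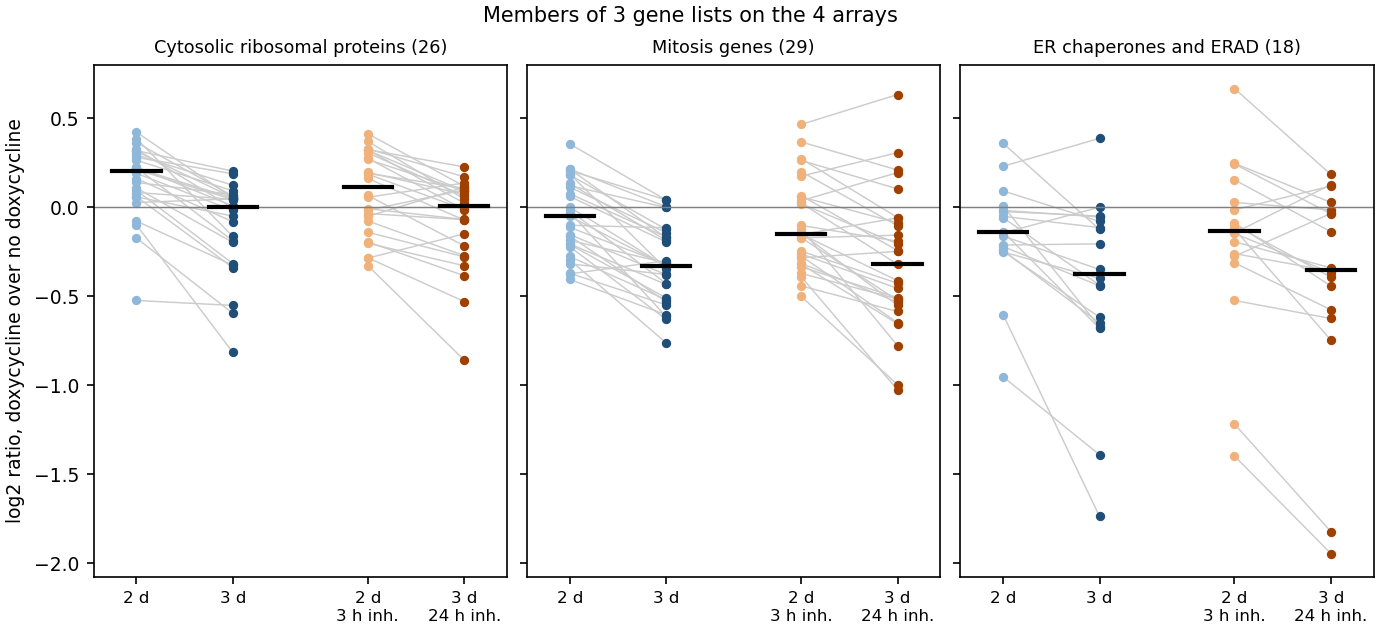
Log2 ratio of the doxycycline channel over the other channel (y axis) on the 4 arrays (x axis; inh. is MLN120b) for members of 3 lists, with grey lines joining each gene within a pair and black bars at the list median. Ribosomal protein medians go from 0.20 to 0.00 and from 0.11 to 0.01, mitosis medians from -0.05 to -0.33 and from -0.15 to -0.32, and those of the endoplasmic reticulum (ER) list from -0.14 to -0.38 and from -0.13 to -0.35.

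RNA processing and export genes had 4 of 25 above (16%) and 15 below (60%) in both pairs, beside 26.6% and 43.2% of all genes. The list medians of -0.25 and -0.16 became -0.15 and -0.01 at equal width. DHX15, a splicing helicase, stood at -0.75 and -1.84 without inhibitor and at -1.47 and -1.99 with it, and at equal width its difference was -0.58 and 0.21. MATR3, a nuclear matrix RNA-binding protein, stood at -1.25 and -1.80 without inhibitor and at -1.79 and -2.32 with it. MATR3 had the lowest mean ratio over the 4 arrays of all genes (-1.79), and its mean difference of -0.54 turned to 0.31 at equal width. The export receptor XPO1 had differences of -0.47 and -0.31. TRA2B, a splicing regulator, lay on the other side at 0.38 and 1.47. DHX15, MATR3, XPO1 and TRA2B rested on 1 probe each. Of the 3 measured genes of small-RNA and hairpin processing 2 lay above and 0 below in both pairs, with PRKRA, a partner of Dicer, at 0.12 and 0.19 and AGO2, the slicer, at 0.01 and 0.24 (-0.01 and 0.13 at equal width).

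For replication genes 17 of 24 were below (70.8%) and 2 above (8.3%) in both pairs, beside 43.2% and 26.6% of all genes. The list medians were -0.18 and -0.23, and at equal width -0.05 and -0.09 with 13 below and 3 above. MCM2, a subunit of the replicative helicase, stood at -0.19 and -0.56 without inhibitor and at -0.17 and -0.61 with it, and its 4 probes were below in both pairs. RRM1, a subunit of ribonucleotide reductase, went from 0.09 to -0.20 and from 0.24 to -0.18, crossing 0 in both pairs. FEN1, the flap endonuclease, had differences of -0.43 and -0.40 and the helicase subunit MCM5 -0.31 and -0.59 on 1 probe each.

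For mitosis genes 23 of 29 were below (79.3%) and 1 above (3.4%) in both pairs, beside 43.2% and 26.6% of all genes. The list medians were -0.26 and -0.19, and at equal width -0.22 and -0.12 with 18 below and 3 above. CCNA2, cyclin A2, stood at 0.19 and -0.35 without inhibitor and at 0.07 and -0.24 with it, above 0 at 2 days and below at 3 days in both pairs. MAD2L1, of the spindle checkpoint, went from 0.18 to -0.12 and from 0.02 to -0.32 with its 4 probes below in both pairs. HMMR, a spindle and hyaluronan-binding protein, had differences of -0.59 and -0.37 on 3 probes and BIRC5, survivin, -0.41 and -0.64 on 1. The mean differences of these 4 genes had limma adjusted p-values of 0.208 to 0.232. The 1 list gene above was TTK, with differences of 0.07 and 0.04. KIF15, described above, is not a member of this list.

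G1 regulators and p53 targets did not share a direction, with 9 of 23 above and 6 below and medians of 0.02 in both pairs. CDK4, the G1 kinase, had differences of -0.52 and -0.42, cyclin E1 (CCNE1) -0.42 and -0.32 and CDK2 -0.27 and -0.22. BBC3, which encodes the cell death protein PUMA, stood at -0.01 and 0.47 without inhibitor and at 0.37 and 1.00 with it on 1 probe. Apoptosis regulators had 12 of 26 above and 8 below, with medians of 0.03 and 0.02 (0.09 and -0.01 at equal width). The death ligand TNFSF10 (TRAIL) had differences of 0.46 and 0.31 on 1 probe, and PMAIP1 (NOXA) -0.39 and -0.31 with its 4 probes below in both pairs.

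Of 21 glycolysis genes 14 were below (66.7%) and 3 above (14.3%) in both pairs, beside 43.2% and 26.6% of all genes. The list medians were -0.19 and -0.20, and -0.09 and -0.14 at equal width. PGAM1, a mutase of glycolysis, stood at 0.03 and -0.33 without inhibitor and at -0.06 and -0.57 with it, and all 7 of its probes were below in both pairs. ALDOA, the aldolase, had differences of -0.38 and -0.41 on 1 probe. Of 11 genes of mitochondrial translation and respiration 10 were below and 0 above, with medians of -0.27 and -0.26, and at equal width 7 below and 1 above. ATP5F1B, the catalytic subunit of ATP synthase, went from 0.09 to -0.21 and from 0.05 to -0.30 on 3 probes, while TUFM, the mitochondrial elongation factor, had differences of -0.33 and -0.28 as deposited and 0.29 and 0.19 at equal width. Cholesterol synthesis had 5 of 7 below and 1 above, with medians of -0.16 and -0.29, and squalene epoxidase, SQLE, had differences of -0.27 and -0.61 on 3 probes that went the same way. For the proteasome 6 of 9 were below and 1 above, with medians of -0.10 and -0.24, and at equal width 5 below and 3 above with -0.03 and -0.08. PSMA7, a core subunit, had differences of -0.23 and -0.24, and PSMD3, of the regulatory cap, was the 1 above with 0.37 and 0.34.

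Housekeeping genes, often used as references, also lay below 2 days. Of 12, 11 were below (91.7%) and 0 above in both pairs, beside 43.2% and 26.6% of all genes. The list medians were -0.33 and -0.36, and at equal width -0.28 and -0.20 with 9 below and 0 above. ACTB, cytoplasmic actin, stood at -0.37 and -1.04 without inhibitor and at -0.45 and -0.99 with it, and all 11 of its probes were below in both pairs. Its difference was -0.60 ± 0.09 (SD, n = 2 pairs; limma adjusted p = 0.208), and -0.39 and -0.19 at equal width. GAPDH had differences of -0.46 and -0.33, TUBB, a tubulin, -0.40 and -0.50 and YWHAZ, a 14-3-3 protein, -0.34 and -0.50. No probe of this list lacked a value, against 22.4% of the probes of all genes. Over all genes, the 2310 with a value for each of their probes had median differences of -0.10 and -0.07, and the 1279 with at least 1 probe lacking a value had differences of -0.02 and 0.02. The part of missing values in the list results was not tested.

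Of 7 heat shock genes 5 were below and 1 above, with medians of -0.40 and -0.26. HSP90AB1, a cytosolic HSP90, had differences of -0.44 and -0.34 and CCT3, of the chaperonin ring, -0.40 and -0.36, while BAG3, a heat-inducible cochaperone, was above on all 4 of its probes with 0.28 and 0.39. Of 23 cytoskeleton and adhesion genes 14 were below and 3 above, but at equal width 10 were below and 9 above. EZR, ezrin, which ties actin to the membrane, went from -0.05 to -0.54 and from 0.07 to -0.54 on 1 probe. CD2AP, an actin adaptor, had differences of -0.34 and -0.43 as deposited and 0.46 and 0.31 at equal width.

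Interferon and double-stranded RNA response genes had 6 of 22 above (27.3%) and 10 below (45.5%) in both pairs, near the shares of all genes (26.6% and 43.2%), and medians of -0.05 and -0.01, which became 0.03 and -0.02 at equal width. IFIT1, an RNA-binding effector, stood at 0.16 and 0.38 without inhibitor and at 0.10 and 0.67 with it. OAS2, a sensor of double-stranded RNA, had differences of 0.20 and 0.60 and the interferon-induced gene IFI44L 0.50 and 0.21 (0.54 and -0.03 at equal width). The 10 genes below included MX2, a GTPase of the same response (-0.23 and -0.17), IFIT3 (-0.23 and -0.16) and IFI6 (-0.25 and -0.135). IFIT1, OAS2 and IFI44L rested on 1 probe each.

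**Figure D5:**
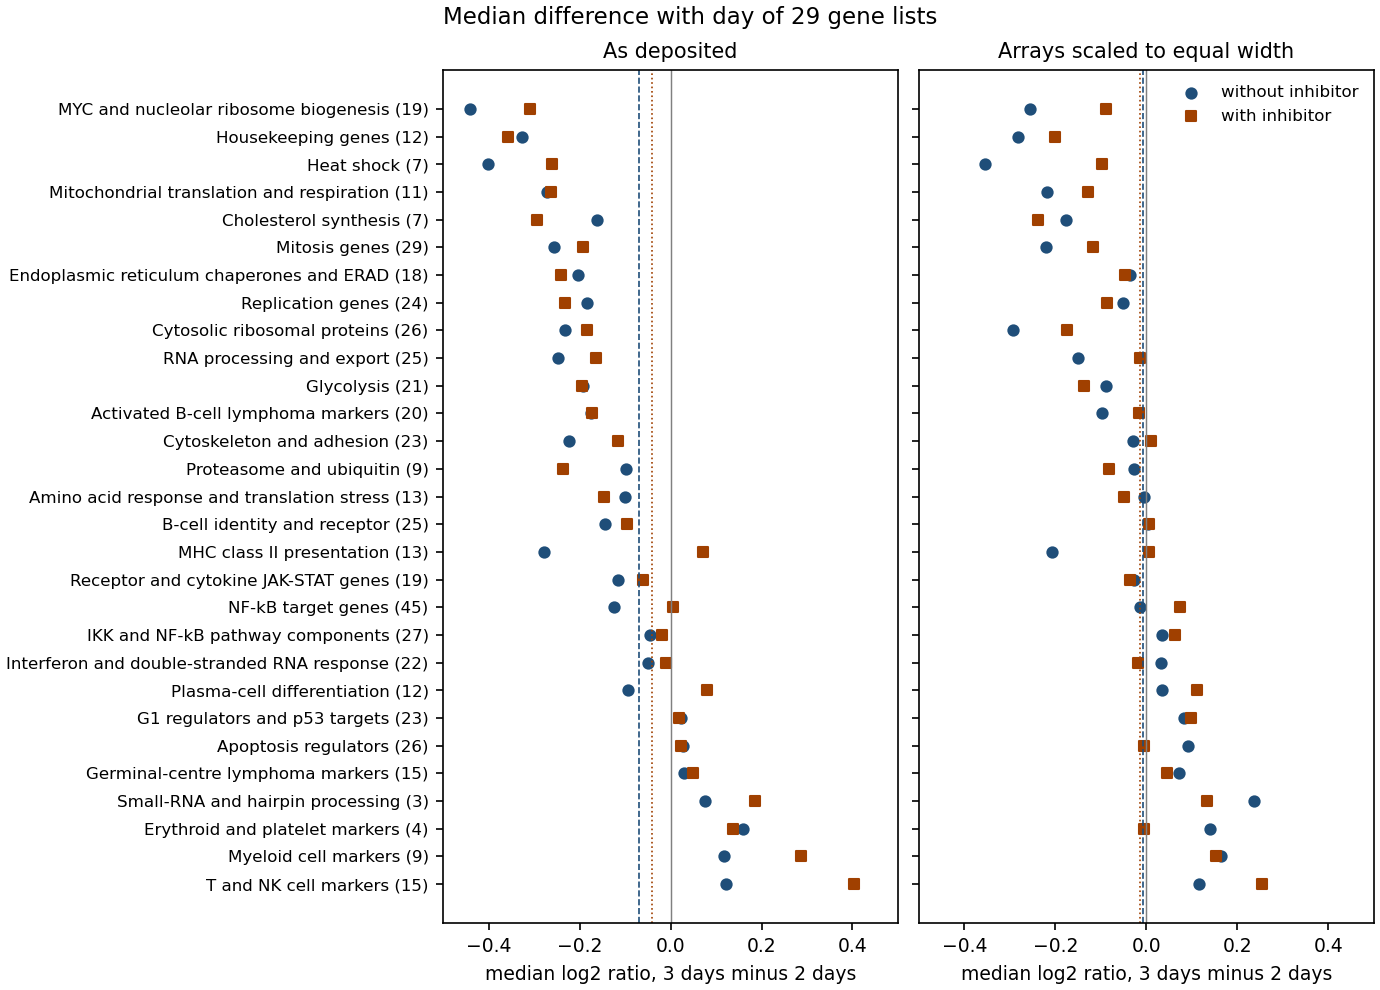
Median difference of the log2 ratio with day (x axis, 3 days minus 2 days) for each of 29 gene lists (y axis, number of measured genes in brackets) without inhibitor (circles) and with inhibitor (squares), as deposited (left) and after scaling arrays to equal width (right); dashed and dotted lines are the medians of all genes. Both medians are below 0 for 19 lists as deposited and for 15 at equal width.

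Both medians were below 0 for 19 of the 29 lists and above 0 for 7, and at equal width for 15 and 8. Markers of other cell types were among those above. T and NK cell markers had 9 of 15 above and 3 below, with medians of 0.12 and 0.40 (6 and 3, with 0.11 and 0.25, at equal width), and the list median on the 4 arrays was 0.00 (2 days) and 0.15 (3 days) in the pair without inhibitor and 0.06 and 0.35 in the other pair. The T-cell coreceptor CD4 had differences of 0.27 and 0.72, the lymphocyte receptor CD5 0.29 and 0.40, and the NK receptor KLRD1 -0.20 and -0.38. Of the probes of this list 47.8% lacked a value on at least 1 array. Myeloid markers had 4 of 9 above and 1 below with medians of 0.12 and 0.29. Those above included the cathepsin inhibitor CST3 (0.35 and 1.40), the growth factor receptor CSF1R (0.31 and 0.63) and the adaptor TYROBP (0.44 and 0.41). Each of these rested on 1 probe. CD68 lay below (-0.08 and -0.04), while ITGAM (-0.33 and 0.04), CD14 (0.12 and -0.19), FCER1G and MS4A7 went opposite ways. Erythroid and platelet markers had 3 of 4 above and 1 below, with medians of 0.16 and 0.14 (0.14 and -0.01 at equal width), and with beta globin, HBB, at 0.23 and 0.21 and platelet factor 4, PF4, at 0.26 and 0.44. The part of these markers in the differences above was not tested, and ratios do not show whether such genes were expressed.

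Some genes went opposite ways in the 2 pairs. THOC2, of the mRNA export complex, stood at -1.29 and -0.61 without inhibitor and at -1.39 and -2.67 with it, a difference of 0.69 in one pair and -1.28 in the other. SPOPL, a cullin adaptor, had differences of 0.75 and -0.69 with both probes opposite between pairs, and FCHSD2, a membrane-bending adaptor, 0.73 and -0.60. HIPK3, a homeodomain-interacting kinase, had differences of 0.52 and -0.93, SLC35E1, a transporter-like membrane protein, 0.50 and -1.05, and WASF3, an actin regulator, -0.56 and 0.97. THOC2, FCHSD2, HIPK3 and SLC35E1 rested on 1 probe, and the 2 WASF3 probes disagreed. Whether the pairs differ was not tested for these genes, since each pair holds 1 array per day.

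The genes with the lowest and highest mean ratios over the 4 arrays were followed between days as well. Beside MATR3 and DHX15, the lowest were CD2AP, THOC2, ALCAM, an adhesion molecule that went from -1.47 to -1.55 and from -0.95 to -2.06, and NMD3, a ribosome export adaptor that went from -0.75 to -1.43 and from -1.65 to -1.96. At equal width the mean differences of ALCAM and NMD3 turned to 0.25 and 0.13. Among the highest, DNAJC27, a small GTPase with a J domain, stood at 0.24 and 0.21 without inhibitor and at 0.69 and 2.94 with it. S1PR1, the sphingosine phosphate receptor, stood at 0.46 and 0.58 without inhibitor and at 0.92 and 0.72 with it. The signalling adaptor SH2B1 had differences of 0.48 and 1.02 and PRKACG, a catalytic subunit of protein kinase A, -0.08 and -0.44, and DGKG and RLF, described above, completed the highest. SH2B1, PRKACG, ALCAM, NMD3 and DNAJC27 rested on 1 probe.

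Across the 3589 genes the log ratios of the 2 arrays at 3 days had a Pearson r of 0.75, and those at 2 days 0.53. Within the pairs it was 0.47 without and 0.60 with inhibitor. The differences with day of the pairs had an r of 0.45, which was 0.30 at equal width, 0.42 for genes on 1 probe and 0.52 for genes on 2 or more. Genes are not independent replicates, the arrays share a probe design and dye order, and it is not known whether they share uninduced RNA, so these values are a description.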

How the data were processed

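Values of 4 arrays were taken from the deposited series table, which gives 1 log2 ratio per probe and array (base and direction read as in the text). The authors' background correction, normalization, spot filter and genome build were not given in the sources used here. All 4 value columns matched a sample by name, and 0 columns were left over. The platform annotation named 1 gene for 10169 of 15246 probes, several for 4 and none for 5073; 10128 matched RefSeq gene identifiers. Probes with a value on all 4 arrays (9788, of which 6796 had a gene) were averaged per gene.

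Arrays were paired by inhibitor status from the labels, not by replicate number given in accession order. limma 3.58.1 in R 4.3.3 fitted day with inhibitor status as a covariate (lmFit, eBayes, prior 4.35 degrees of freedom, two-sided, Benjamini-Hochberg over 3589 genes). The fit was also run on simulated data. These lacked the difference in width between the arrays, so that run does not show how the fit behaves on them. Scaling to equal width centred each array and set its median absolute deviation to the mean of the 4. Gene lists are described by counts and medians, with no set test.

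The comparison, its lists and its genes were chosen with earlier results of these data known. Named genes are a fixed set of NF-kB and low genes, the 15 of each sign with the largest smaller difference of the 2 pairs, up to 4 per list, 6 with opposite differences, the 6 lowest and 6 highest, and 4 of each sign at equal width. Alternatives were no inhibitor term, median centring, equal width, other ways to use probes, a robust prior and an adjusted p under 0.10. Others were a 2-fold rule, each pair alone and each array left out, the last without the inhibitor term. The number of arrays limits the precision. Python 3.11.15 with pandas 2.3.3 and matplotlib 3.10.9 was used.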

Additional observations from a re-analysis of the deposited data

Results flagged for a closer look

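These results had opposite signs of the 3-day minus 2-day value in the 2 pairs. The gap between pairs, the value without minus that with inhibitor, was not tested because each pair holds 1 array per day. For CHUK, the target of the hairpin, the gap was -0.57 on the log2 scale, with both probes opposite, and for IKBKG it was 0.047. Among the genes with the largest opposite values it was 1.44 for SPOPL, 1.96 for THOC2, 1.32 for FCHSD2, -1.53 for WASF3, 1.45 for HIPK3 and 1.55 for SLC35E1. It was 0.32 for S1PR1 and -2.28 for DNAJC27, which stood at 2.94 on the 3-day inhibitor array. Of the lists, the median of NF-kB target genes differed by -0.13, that of plasma-cell differentiation by -0.17 and that of MHC class II presentation by -0.35.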

How the results depend on the processing

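The limma count of 0 genes became 3 at equal width and 4 on single probes. It stayed 0 under the other alternatives that kept all 4 arrays. With no inhibitor term, which undoes the pairing, the count was 0 (512 at an unadjusted p under 0.05). Fits with an array left out also lacked the inhibitor term, so they did not check the paired fit. Genes past 1.5-fold in both pairs, 14 above and 13 below, became 22 and 7 with median centring, 19 and 2 at equal width, 56 and 64 as single probes, and 2 and 0 at 2-fold; the pair without inhibitor alone gave 67 and 67 and the inhibitor pair alone 253 and 101. The 19 lists with both medians below 0 became 15 at equal width. In the pair without inhibitor alone, 22 lists had a median below 0. Of 158 named genes, the mean difference turned sign with median centring for IKBKG (0.031) and at equal width for NFKBIA (0.094), MATR3 (0.31), SEL1L (0.19), TUFM (0.24), CD2AP (0.39), THOC2 (0.61), ALCAM (0.25) and NMD3 (0.13). Signal over background is unknown here. Pairing by inhibitor status was part of the fit wherever the inhibitor term was kept. Replicate numbers, given in accession order, paired nothing.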

Other observations

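Of 2992 probes with no gene name and a value on all 4 arrays, 23 lay above and 12 below 2 days by over 1.5-fold in both pairs and 1 went opposite ways beyond it. Genes were also averaged over whichever probes had a value on each array, so the 2 days of a gene can rest on different probes. With genes of 1 pair alone included, the pair without inhibitor then held 4168 genes, 189 above and 61 below 2 days by over 1.5-fold. The inhibitor pair held 3817 genes, 306 above and 111 below. These counts therefore differ from the earlier ones in probes as well as in genes.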
